A study of Mus musculus with 10 samples.

Results

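The Hoxa cluster genes Hoxa2, Hoxa3, Hoxa4, Hoxa5, Hoxa6, Hoxa7, Hoxa9, Hoxa10 and Hoxa11 were followed on 10 1-colour Agilent arrays of mouse bone marrow cells. They were found by matching the RefSeq accession of each probe to the gene, and all 9 were found, with 10 of the 55681 probes and 9 of the 20972 genes that could be named. Hoxa9 had 2 probes and the others 1 each. Of the 9 genes, 7 were well above background, by the call of the scanner software, on at least 1 array, and Hoxa4 and Hoxa11 on 0. No Hoxa gene passed the test in any comparison below. Hoxa5 was well above background on 5 of 8 KO arrays and lay below the WT array of its slide on 4 of those 5, by at most 2.40 (log2), and the 2 WT arrays lay 2.56 apart for the same gene.

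The cells were LSK cells, a gate of bone marrow defined by c-Kit and Sca-1 and by the absence of lineage markers, in which stem cells and multipotent progenitors of blood are enriched. They were sorted for CD45.2 after transplantation into mice given tamoxifen. All groups carried the Cre-Ert transgene on a C57BL/6 background. The KO genotype is Cre-Ert;Ezh2fl/fl, in which tamoxifen deletes Ezh2, and the WT genotype is Cre-Ert alone. The KO group at 3 months after transplantation had 1 array from animals without disease. The KO arrays at 9-12 months were 2 with myelodysplastic syndrome (MDS), 3 with mixed features of MDS and of myeloproliferative neoplasm (MDS/MPN), 1 whose disease was not determined and 1 labelled with several diseases, called mixed here. The labels of MDS/MPN replicate 1 add TC and those of replicate 3 add CMMoL; neither is explained in the labels, and the 3 were taken as 1 group, though they may not be 1 disease. WT had 1 array at 3 months and 1 at 9-12 months. The design text gives n = 3 at 3 months, where there was 1 array per genotype. Whether mice were pooled for the WT arrays, the 3-month KO array or the mixed array, which promoter drives the Cre, and which host cells were left are not given in the sources used here. Nothing in the labels ties the replicates to separate experiments, so p-values measure only the spread between these arrays.

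Hox genes encode homeodomain transcription factors that lie in clusters, in the order in which they are switched on along the body axis. In blood, Hoxa genes are active in stem cells and early progenitors and are shut off as cells mature, and high HOXA9 with its partner MEIS1 is a hallmark of many acute leukaemias. EZH2 is the methyltransferase of Polycomb repressive complex 2 (PRC2), which places methyl groups on lysine 27 of histone H3. Hox clusters are classic targets of PRC2, and CpG-rich promoters are where the complex is mostly found in mammalian cells.

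Slide 1 held the arrays labelled 3 months and slide 2 the other 8, so slide and time cannot be told apart. In the deposited value table, 4 columns carry each other's time label. The WT and KO columns labelled 3 months hold the slide 2 scanner values of WT and mixed KO, and the columns labelled 9-12 months for those 2 hold the slide 1 values. The genotype labels are the same in both, and the scanner files give the times used below. The 75th percentile signal of an array was 78.7 to 301.7 intensity units, highest on MDS/MPN replicate 2, and 32.5% to 47.5% of probes were well above background. That array stood apart from the other 9, whose 75th percentile was at most 144.7, and results that rest on it are given with and without it. No probe was saturated. The LSK markers Kit, Ly6a and Ptprc were well above background on all 10 arrays. Ezh2 RNA read 0.57 (log2) above WT on the KO array of slide 1 and -0.50 to 0.71 from WT on slide 2. Where its probe lies relative to the deleted exons is not given, so this does not check the deletion.

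The upstream sequences of 4 members are shown to set 2 genes measured on every array beside 2 that dropped out together on some. Hoxa7 and Hoxa9 were well above background on all 10 arrays, and Hoxa3 and Hoxa5 on the same 7. Each line gives the 250 bases before the RefSeq start on the minus strand of chromosome 6 (GRCm38.p6), 5′ to 3′, with CG dinucleotides in capitals.
Hoxa3 promoter, chr6:52213068-52213317: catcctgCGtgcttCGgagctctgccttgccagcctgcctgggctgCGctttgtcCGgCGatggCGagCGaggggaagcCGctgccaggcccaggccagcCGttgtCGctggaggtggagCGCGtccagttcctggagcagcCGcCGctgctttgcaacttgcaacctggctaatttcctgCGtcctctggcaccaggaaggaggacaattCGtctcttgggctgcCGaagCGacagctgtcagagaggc
Hoxa5 promoter, chr6:52204588-52204837: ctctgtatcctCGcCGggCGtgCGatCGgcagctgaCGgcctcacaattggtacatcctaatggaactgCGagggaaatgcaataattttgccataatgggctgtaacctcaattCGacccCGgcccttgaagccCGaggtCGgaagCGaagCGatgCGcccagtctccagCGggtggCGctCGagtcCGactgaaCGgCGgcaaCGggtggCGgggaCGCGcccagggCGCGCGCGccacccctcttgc
Hoxa7 promoter, chr6:52218574-52218823: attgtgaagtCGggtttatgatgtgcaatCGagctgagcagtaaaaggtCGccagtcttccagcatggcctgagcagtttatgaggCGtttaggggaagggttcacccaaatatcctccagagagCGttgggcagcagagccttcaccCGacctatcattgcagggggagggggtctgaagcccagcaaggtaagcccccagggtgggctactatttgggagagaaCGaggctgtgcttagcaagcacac
Hoxa9 promoter, chr6:52227371-52227620: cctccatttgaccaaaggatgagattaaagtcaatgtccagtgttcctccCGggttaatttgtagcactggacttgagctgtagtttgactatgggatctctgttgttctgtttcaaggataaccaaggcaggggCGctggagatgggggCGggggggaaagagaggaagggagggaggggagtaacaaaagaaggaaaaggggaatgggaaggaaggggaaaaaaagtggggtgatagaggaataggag
The Hoxa5 window holds 28 CG dinucleotides, more than 92.4% of the 32851 promoters in the RefSeq table, against a median of 6 over all of them. The Hoxa3 window holds 18, the Hoxa7 window 7 and the Hoxa9 window 3. Among members not printed, the Hoxa6 window holds 24, Hoxa11 13 and Hoxa2 6, the 2 Hoxa10 windows hold 20 and 7, and Hoxa4 was not matched. Hoxa9, with 3, was well above background on every array and Hoxa11, with 13, on none. The MEIS motif TGACAG was found on either strand in the Hoxa2 and Hoxa3 windows and in 15.9% of all promoters. The PBX-HOX motif TGATNNAT was found in the Hoxa2 window and in 7.68% of promoters, and the CDX motif TTTATNG in none of the 9 windows and in 9.81% of promoters.

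Detection was uneven along the cluster, whose posterior end is Hoxa13, with Evx1 beyond it. Hoxa7 and Hoxa9 were well above background on 10 arrays, Hoxa10 on 8, Hoxa3 and Hoxa5 on 7, and Hoxa2 and Hoxa6 on 2. As a background, 46.3% of named genes were well above background on every array and 30.5% on none. Counted per array, 6 members were well above background on the 3-month KO array and 5 on the WT array of that slide. On slide 2 there were 5 on each MDS array, 2, 7 and 3 on MDS/MPN replicates 1 to 3, 2 on the not determined array and 5 on the mixed array, against 6 on WT. The arrays with the fewest, MDS/MPN replicate 1 and the not determined array, had among the fewest probes above background as a whole, 32.5% and 36.9%. The part of overall signal in these counts was not tested.

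**Figure D1:**
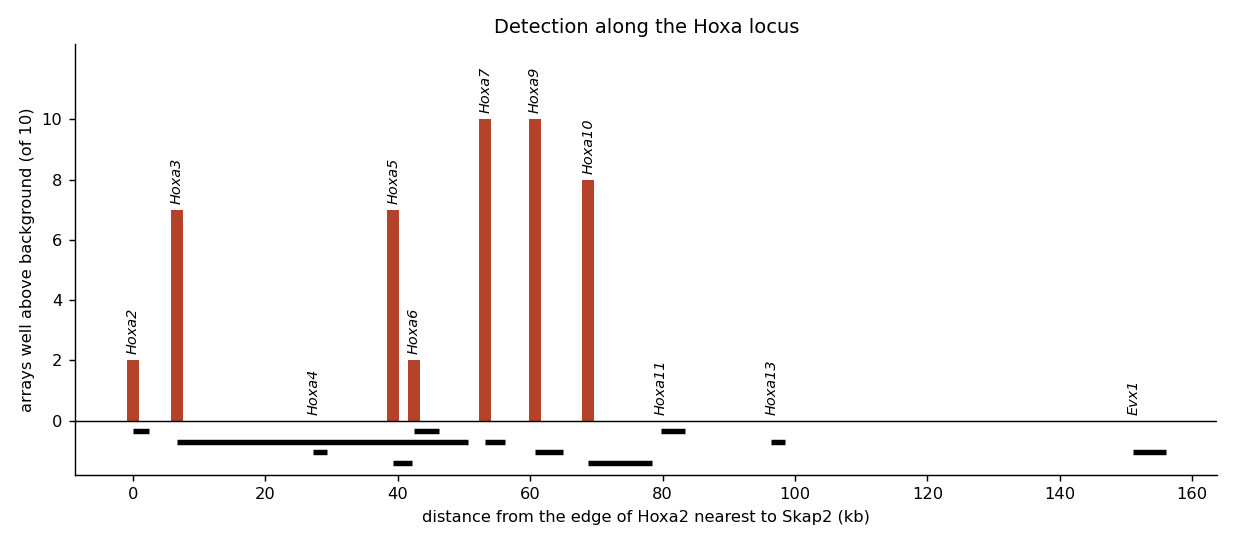
Number of the 10 arrays on which each gene was well above background (vertical axis) against the distance in kb from the edge of Hoxa2 nearest to Skap2 (horizontal axis). Bars stand at the near edge of each gene, red for the 9 members, black lines mark the RefSeq gene spans, and the tallest bars are Hoxa7 and Hoxa9 at 10 arrays.

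Hoxa2, Hoxa3 and Hoxa4 lie at the anterior end; Hoxa2 patterns the hindbrain and neural crest, and Hoxa3 the pharyngeal organs. Values from here on are log2 signals over the 75th percentile of the array. Hoxa2 (chromosome 6, 52162417 to 52164831, GRCm38.p6, minus strand) was well above background only on the 3-month KO array, at -2.42, and on MDS/MPN replicate 2, at -1.84. On the WT array of slide 1 it was not. With that WT reading raised to the lowest signal called well above background on its array, the 3-month KO array was 1.85-fold above WT. Hoxa4 was well above background on 0 of 10 arrays, and its readings have no order.

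Hoxa3 (52169059 to 52213067) spans Hoxa4, Hoxa5 and Hoxa6 in the RefSeq table. It read -1.46 on the 3-month KO array, against -0.39 on WT. On slide 2 it read -1.15 and -0.78 on the MDS arrays, -2.99, 0.13 and -3.14 on the MDS/MPN arrays, -2.63 on the not determined array and -1.31 on the mixed array, against -1.07 on WT. The readings of -2.99, -3.14 and -2.63 were not well above background. The KO arrays of slide 2 thus lay on both sides of WT, with MDS/MPN replicate 2 and MDS replicate 2 above it.

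Hoxa5 (52201754 to 52204587), a regulator of lung and skeletal development and of myeloid maturation, had the widest range of the members over its readings well above background, 3.28 over 7 arrays. It read -1.65 on the 3-month KO array, against 0.75 on WT. On slide 2 it read -2.29 and -2.53 on the MDS arrays, -3.48, -0.75 and -4.53 on the MDS/MPN arrays, -3.21 on the not determined array and -1.85 on the mixed array, against -1.81 on WT. MDS/MPN replicate 2 was the only KO array above its WT, and the readings of -3.48, -4.53 and -3.21, on MDS/MPN replicates 1 and 3 and the not determined array, were not well above background. The same 3 arrays were not well above background for Hoxa3, and their lowest signals called well above background were the 3 highest of all arrays, -1.51, -2.28 and -2.22 against -3.69 to -2.35 on the other 7.

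Hoxa6 (52204858 to 52208672) was well above background only on MDS/MPN replicate 2, at -2.03, and on the WT array of slide 2, at -1.91. Hoxa7 (52215623 to 52218573), whose human counterpart is raised in leukaemias with KMT2A fusions, was measured on every array. It read 3.60 on the 3-month KO array, against 2.80 on WT. On slide 2 it read 3.05 and 3.23 on the MDS arrays, 2.14, 3.62 and 2.59 on the MDS/MPN arrays, 2.91 on the not determined array and 3.55 on the mixed array, against 3.34 on WT. KO and WT readings overlapped, and its range over the 10 arrays was 1.48.

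Hoxa9 (52223097 to 52227370), which sustains stem cell self-renewal, was measured on every array, with a range of 1.21. It read -0.51 on the 3-month KO array, against -0.17 on WT. On slide 2 it read -0.14 and 0.08 on the MDS arrays, -0.81, -0.20 and -1.11 on the MDS/MPN arrays, -0.67 on the not determined array and 0.10 on the mixed array, against 0.05 on WT. On slide 2 the mixed array and MDS replicate 2 read slightly above WT and the other 5 KO arrays below it. Its other probe was also well above background on every array. It read below the WT array of its slide on all 8 KO arrays, as did 3.71% of the features tested by their brightest probe. The differences ran from -0.10 on MDS replicate 2 to -1.60 on the not determined array, with -0.26 on the mixed array. The 2 probes thus disagreed on the side of WT for MDS replicate 2 and the mixed array.

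Hoxa10 (52231197 to 52240854), which governs the expansion of myeloid progenitors and, outside blood, the uterus, was well above background on 8 arrays. It read -0.94 on the 3-month KO array, against 0.71 on WT. On slide 2 it read -0.01 and 0.26 on the MDS arrays, -1.33, -0.70 and -1.59 on the MDS/MPN arrays, -4.21 on the not determined array and -0.57 on the mixed array, against -1.01 on WT. The readings of -1.33 and -4.21 were not well above background. Hoxa11, a gene of limb and uterus at the posterior end, was spotted 10 times on each array, and of its 100 spots 3 were called well above background, all 3 of them marked as outliers.

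**Figure D2:**
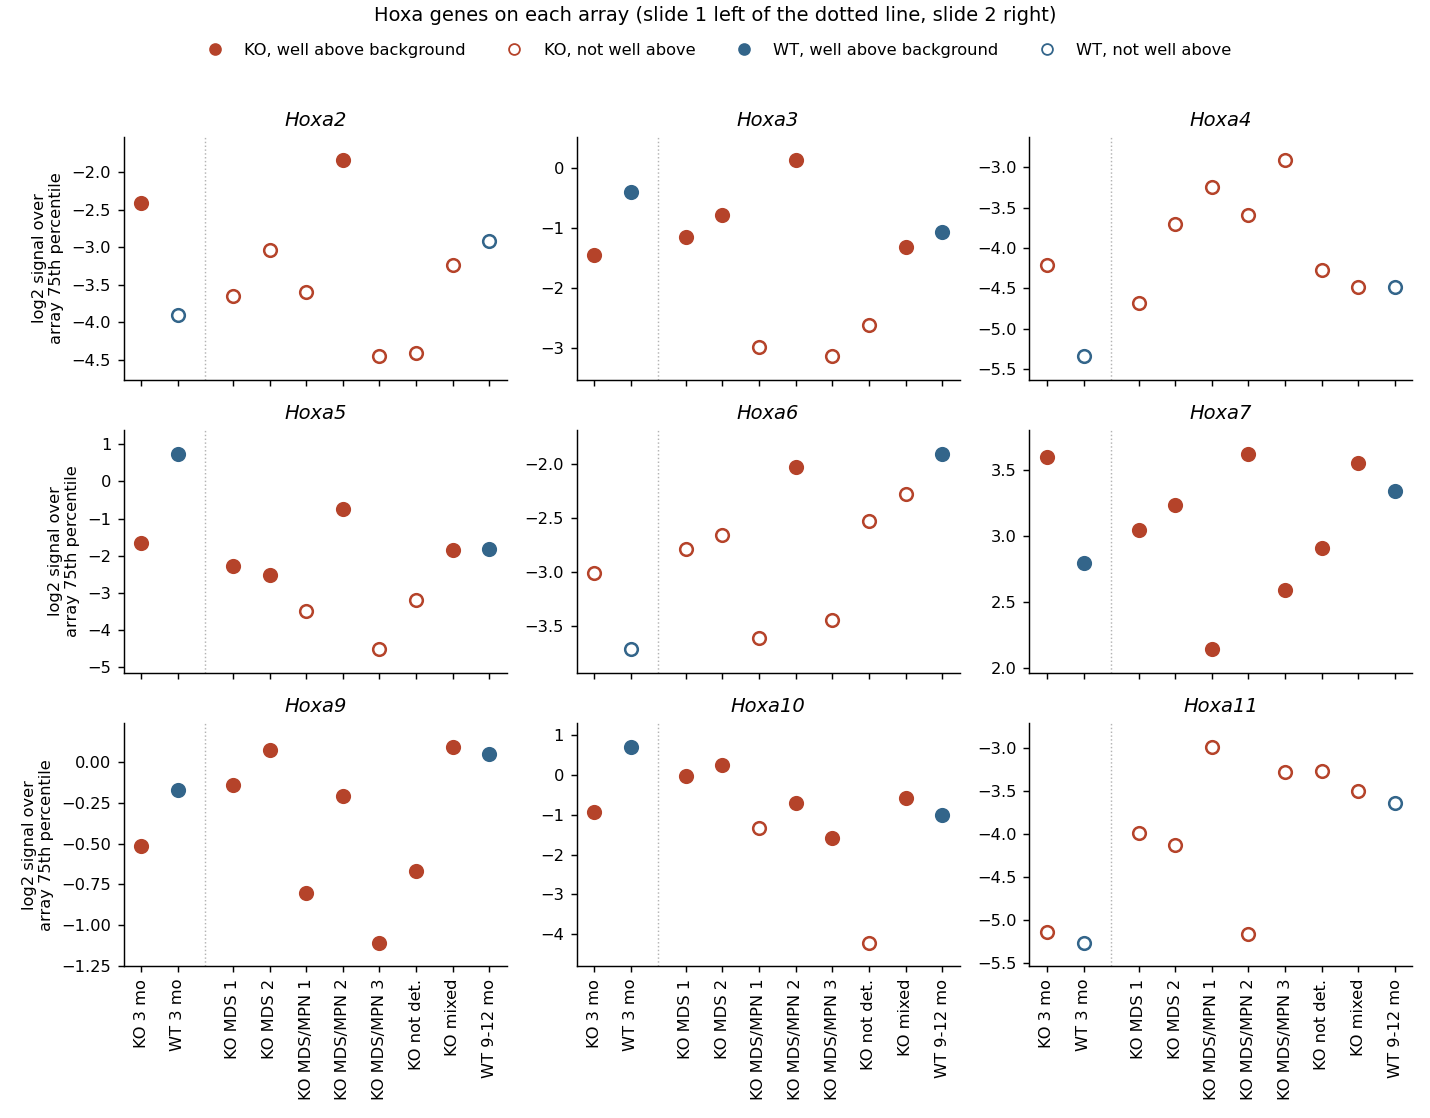
Log2 signal over the 75th percentile of the array (vertical axis, a separate scale for each gene) on the 10 arrays (horizontal axis), KO in red and WT in blue, filled where the gene was well above background. Hoxa7 and Hoxa9 are filled on all 10 arrays, Hoxa3 and Hoxa5 are open on MDS/MPN 1, MDS/MPN 3 and the not determined array, and Hoxa4 and Hoxa11 are open on all.

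The main comparison asked whether the Hoxa genes differ between KO and WT, setting all 8 KO arrays against the 2 WT arrays with slide as a block, so that each KO array meets the WT of its own slide. Of the 9 members 6 could be tested and 0 passed, where 0.0134% of the 22371 features tested did (3, namely Nutm2, Lgr5 and Tstd3, named because the count is small). Hoxa5 had the largest difference, KO minus WT -1.41 ± 0.85 (SE, limma adjusted p = 0.967), with a 95% interval of -3.30 to 0.47; 3 of its 8 KO readings were not well above background. Hoxa3 was -0.78 ± 0.84, with the same 3 readings at background, Hoxa10 -0.70 ± 1.02, Hoxa9 -0.41 ± 0.39 and Hoxa7 0.09 ± 0.45, with limma adjusted p of 0.967 to 0.9996. Hoxa6 entered the test only through WT, being well above background on 1 of 8 KO arrays and 1 of 2 WT arrays, so its difference is not read. The median of the other 5 was -0.70, beside 0.09 over the 18092 features well above background on at least 50% of the arrays of both groups. Without MDS/MPN replicate 2, Hoxa5 was -1.62, Hoxa3 -0.98 and Hoxa10 -0.76. Without the mixed array, Hoxa5 was -1.50, Hoxa3 -0.83, Hoxa10 -0.77, Hoxa9 -0.46 and Hoxa7 0.03. Within slide 2 alone, with 7 KO arrays and 1 WT array, Hoxa5 was -0.85, Hoxa3 -0.62, Hoxa9 -0.45, Hoxa7 -0.32 and Hoxa10 -0.16, and slide 1 holds the lone pair of arrays given below. Another scaling of the arrays, on probes well above background on all of them, moved the median of those features to -0.12 and that of the 5 members to -0.91, and turned Hoxa7 to -0.12.

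Counted by array, a KO reading not well above background was raised to the lowest signal so called on its array, and it counted as below WT only where WT was well above background and still higher. By that count Hoxa3, Hoxa5 and Hoxa9 each lay below the WT array of their slide on 6 of 8 KO arrays, as did 22.5% of all features on at least 6. Hoxa7 did so on 5 and Hoxa10 on 4. For Hoxa5 the side of MDS/MPN replicate 1 could not be settled. Hoxa6 was also counted on 6, but only 1 of those KO readings was well above background, -0.12 from WT. It entered the test only through WT, so its count is not read. Hoxa9 lay -0.34 from WT on the 3-month KO array, -0.19 and 0.02 on the MDS arrays, -0.86, -0.26 and -1.16 on the MDS/MPN arrays, -0.72 on the not determined array and 0.04 on the mixed array. For Hoxa5, the KO readings well above background ranged from -2.40 to 1.06 around the WT array of their own slide.

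**Figure D3:**
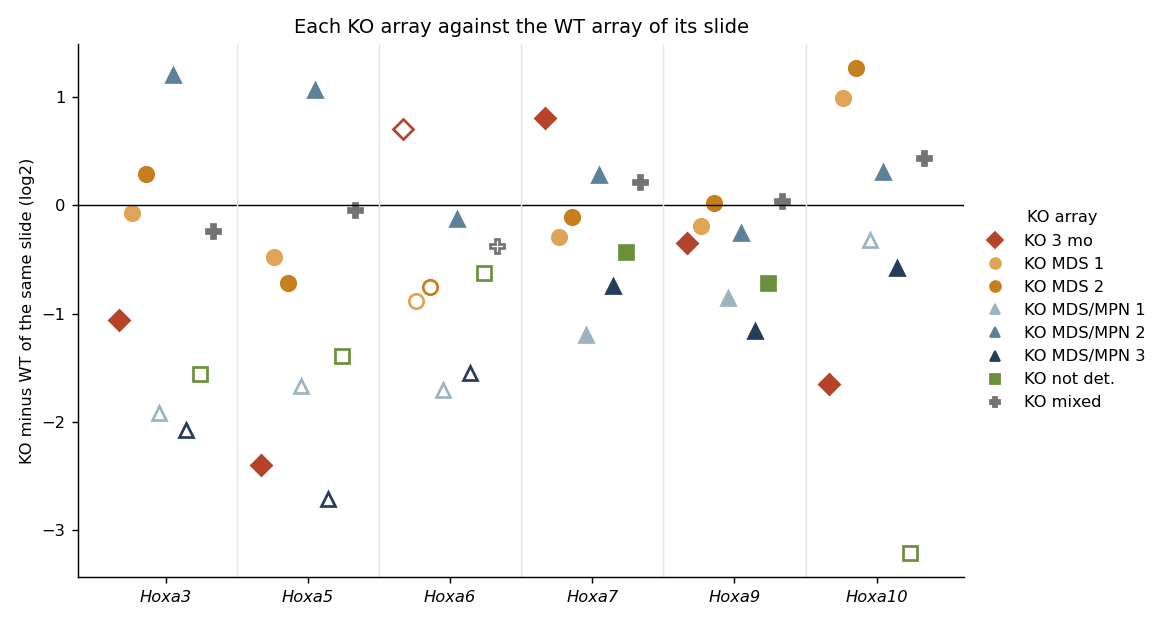
KO minus WT of the same slide in log2 (vertical axis) for the 6 tested members (horizontal axis), with a point for each of the 8 KO arrays, open where the KO or the WT reading was not well above background. For Hoxa5 the filled points run from -2.40 to 1.06 and the 3 lowest points on slide 2 are open, and for Hoxa9 all 8 points are filled, from -1.16 to 0.04.

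The design also asks about aged KO mice alone. The 6 KO arrays at 9-12 months other than the mixed array were set against the WT array of slide 2. The spread of that lone WT array was taken from the KO arrays. The mixed array was left out because it may hold the same mice. Again 6 members were tested and 0 passed, where 0.587% of 19597 features did. Hoxa5 was -0.98 (95% interval -3.49 to 1.53), Hoxa3 -0.69 ± 1.16, Hoxa9 -0.53 ± 0.52, Hoxa7 -0.41 ± 0.55 and Hoxa10 -0.26 ± 1.37, each with limma adjusted p = 0.9999. Hoxa6, well above background on 1 of the 6 KO arrays and on WT, again entered only through WT and is not read. The 5 differences were negative, but not under every alternative: with only the KO arrays of the line of the slide that holds WT, Hoxa3 was 0.11 and Hoxa10 1.13, and without the not determined array Hoxa10 was 0.33. Their median was -0.53, beside -0.0045 over the 17201 features well above background on at least 50% of the arrays of both groups. By the count by array used above, Hoxa7 and Hoxa9 lay below WT on 5 of 6 arrays, as 24.4% of all features did on at least 5. Hoxa6 was counted on 5 as well, and this is not read either. Without MDS/MPN replicate 2, Hoxa5 was -1.39 and Hoxa3 -1.07. With the time labels of the value table, which bring in the WT array of slide 1, Hoxa5 was -3.55 and Hoxa10 -1.97.

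Within the KO genotype, MDS/MPN was compared with MDS, the only disease groups with replicates. Of the 5 members tested 0 passed, and of 20727 features 0 did (0%), with 308 higher and 614 lower at an unadjusted limma p under 0.05. Without MDS/MPN replicate 2 these counts were 4081 higher and 2392 lower of 21533 features, and again 0 passed after adjustment. Hoxa10 read -1.33, -0.70 and -1.59 in MDS/MPN, against -0.01 and 0.26 in MDS, so that the groups did not overlap. Its difference was -1.33 ± 0.40 (95% interval -2.32 to -0.34, limma unadjusted p = 0.0172, adjusted p = 0.992). Hoxa9 also lay lower on all 3 MDS/MPN arrays, at -0.81, -0.20 and -1.11, against -0.14 and 0.08 in MDS, a difference of -0.67 ± 0.40. Of all features, 9.86% did not overlap in that direction, readings at background raised as above. The reading of -1.33 for Hoxa10 was itself not well above background. Hoxa7 was -0.35 ± 0.51. Hoxa3, at -1.04 ± 1.04, and Hoxa5, at -0.51 ± 1.09, were well above background on 1 of 3 MDS/MPN arrays, against 2 of 2 MDS arrays, and entered only through MDS. These 3 overlapped between the groups. Without MDS/MPN replicate 2, the differences were -0.77 for Hoxa7, -0.92 for Hoxa9 and -1.58 for Hoxa10, and 0 passed. No MDS/MPN reading of Hoxa3 or Hoxa5 was then well above background, so their differences, -2.10 and -1.59, are not read. The 2 MDS arrays lay in line 1 of slide 2 and the 3 MDS/MPN arrays in line 2, so line and disease cannot be told apart.

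**Figure D4:**
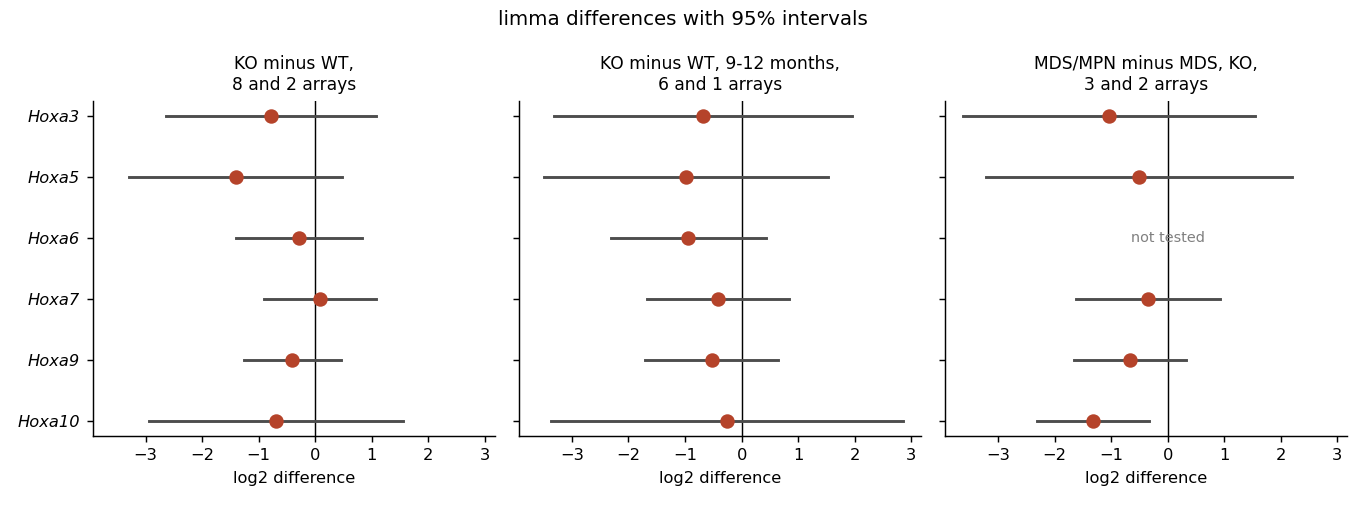
Limma differences in log2 with 95% intervals (horizontal axis) for the 6 members (vertical axis) in 3 comparisons, from left to right KO minus WT over all arrays, KO minus WT at 9-12 months, and MDS/MPN minus MDS. Hoxa6 entered its 2 tests only through WT, and Hoxa3 and Hoxa5 entered the right panel only through MDS. The interval of Hoxa10 in the right panel, -2.32 to -0.34, lies to the left of 0, before adjustment for the 20727 features tested.

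Pairs of lone arrays have no replicates and are given as values. At 3 months, KO minus WT was -2.40 for Hoxa5, -1.65 for Hoxa10, -1.06 for Hoxa3, -0.34 for Hoxa9 and 0.80 for Hoxa7, so 3 of the 5 members well above background on both arrays were at least 2-fold lower, as were 6.95% of all features so measured in that pair. The mixed KO array lay within 2-fold of WT for the 5 members measured on both arrays, from -0.24 for Hoxa3 to 0.44 for Hoxa10, where 0.825% of features were at least 2-fold lower and 1.29% higher. Hoxa6 read 1.30-fold lower on the mixed array, at -2.28, than on WT. That mixed reading was not well above background, yet it lay above the lowest signal so called on its array, -2.40. The fold is therefore no bound. For Hoxa5 and Hoxa10 the gap between the WT arrays was wider than the gap between KO and WT at 3 months. WT at 3 months minus WT at 9-12 months was 2.56 for Hoxa5, 1.72 for Hoxa10, 0.68 for Hoxa3, -0.22 for Hoxa9 and -0.54 for Hoxa7, where 6.72% of features were at least 2-fold higher and 7.36% lower. Hoxa6 was not well above background on WT at 3 months. With that reading raised to the lowest signal so called on its array, Hoxa6 was 2.64-fold lower there than on WT at 9-12 months.

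The change of the KO effect, 9-12 months minus 3 months, was tested directly. Of 7 members 0 passed, and of 23307 features 0 did (0%), with 564 higher and 607 lower at an unadjusted limma p under 0.05. The values ran from -1.22 ± 0.93 for Hoxa7 to 1.41 ± 1.82 for Hoxa5 over the 5 members measured on both slides, each with limma adjusted p = 0.9999. Hoxa2 entered only through the 3-month KO array and Hoxa6 only through WT at 9-12 months, and neither is read. For Hoxa5 this is -0.98 at 9-12 months against -2.40 at 3 months.

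Among the other genes of the locus, Hoxa13 and Evx1 were well above background on 0 of 10 arrays. On the anterior side, Cbx3, Snx10 and Skap2 were measured on all 10 arrays, as were Hibadh and Tax1bp1 beyond Evx1, and Jazf1 on none. Over all arrays the 5 measured neighbours ranged from -0.48 ± 0.67 for Tax1bp1 to -0.01 ± 0.29 for Hibadh in KO minus WT, and 0 passed.

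Of the TALE homeodomain cofactors that bind DNA with HOX proteins, 7 of 9 were tested in KO against WT over all arrays and 0 passed, with a median of 0.08 beside 0.09 over the features measured in both groups. Meis1, the partner of HOXA9 in leukaemia, read 4.21 on the 3-month KO array, against 5.62 on WT. On slide 2 it read 4.86 and 4.63 on the MDS arrays, 3.34, 4.03 and 3.33 on the MDS/MPN arrays, 3.15 on the not determined array and 4.46 on the mixed array, against 5.07 on WT. All 8 KO arrays lay below their WT, as 3.71% of features did, and the difference was -1.21 ± 0.52 (limma adjusted p = 0.862). The other cofactors with the smallest p were Pbx3 at 0.88 ± 0.53, Pbx2 at 0.19 ± 0.26 and Pknox1 at 0.13 ± 0.31. Meis1 also stands in the list of long-term stem cell genes below.

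Of 13 genes known to activate Hoxa transcription, 9 were tested and 0 passed, with a median of 0.08. Aff4, a subunit of the super elongation complex, was -1.26 ± 0.48 (limma adjusted p = 0.784). It was well above background on 5 of 8 KO arrays, so this difference rests in part on readings at background. Mllt1, another subunit of that complex, was 0.87 ± 0.35. Dot1l, the methyltransferase of lysine 79 on histone H3, was 1.03 ± 0.51, and Mllt3 -1.39 ± 0.74. Cdx1, Cdx2 and Cdx4, which switch on Hox genes in the embryo, were well above background on 0 of 10 arrays. All 11 PRC2 genes were tested and 0 passed, with a median of 0.12. The smallest p values belonged to Phf19 at 0.51 ± 0.30, Phf1 at -1.36 ± 0.94, Mtf2 at -0.44 ± 0.37 and Ezh1 at -0.35 ± 0.38. Phf1, too, was well above background on only 5 of 8 KO arrays. Of 17 genes reported as bound or driven by HOXA9 or MEIS1 in blood cells, 16 were tested and 0 passed, with a median of -0.04, 7 positive and 9 negative. Among them Lmo2, a stem cell transcription cofactor, was -0.60 ± 0.28, Cdk6, a cell cycle kinase, 0.67 ± 0.35, Trib2 1.11 ± 0.63 and Ccl3, a chemokine, -1.62 ± 1.31.

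Of the 28 Hoxb, Hoxc and Hoxd genes on the array, 10 were tested over all arrays and 0 passed. Of the 10, 8 were well above background on fewer than 50% of the KO arrays and entered only through WT, so that no count or median over them is given. The other two were Hoxb2, at -2.13 ± 0.44 (limma adjusted p = 0.370), and Hoxb4. Hoxb2 was well above background on 6 of 8 KO arrays and 2 of 2 WT arrays. Hoxb4, a self-renewal factor of stem cells that was measured on all 10 arrays, was 0.04 ± 0.29. The summed signal of the 28 genes was 3.05 to 3.98 times the 75th percentile on KO arrays, against 4.99 and 13.8 on WT. Only 1 to 7 of the 28 were well above background on a KO array, so this sum holds many readings at background. The sum of the 9 Hoxa genes was 6.00 to 16.1 on KO arrays, against 12.1 and 12.9 on WT. Most of it was Hoxa7 alone, 4.41 of the 6.00 on MDS/MPN replicate 1 and 12.3 of the 16.1 on replicate 2. The 2 sums are thus not like measures of their clusters.

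Markers of other cell types are given beside the Hoxa values. Medians here are over the genes of a list that were well above background on at least 50% of the arrays of both KO and WT, in the same comparison. Of 14 long-term stem cell genes 13 were tested and 0 passed, and 4 of them, Clec1a, Tek, Mecom and Fhl1, entered only through WT. The other 9 were negative, with a median of -1.21, among them Esam at -2.33 ± 0.79 and Procr at -2.54 ± 1.03. The summed signal of the list was 14.2 to 84.2 on KO arrays, against 79.7 and 163 on WT. The medians were 1.997 over 8 erythroid genes, 1.91 over 8 mast cell and basophil genes, 1.799 over 10 neutrophil genes and 0.98 over 7 monocyte and macrophage genes. They were 0.76 over 2 B cell genes, 0.16 over 5 T cell genes, 0.04 over 5 stromal and endothelial genes, -0.15 over 6 megakaryocyte genes and -0.48 over 9 LSK genes, and 0 genes passed in any of these lists. The summed erythroid signal was 37.4 to 376.5 on KO arrays, with 7 to 11 of 11 genes well above background, against 34.9 and 40.5 on WT, with 7 genes. The summed mast cell and basophil signal was 19.7 to 127.3 on KO arrays, with 8 to 10 of 10 genes, against 16.2 and 23.9 on WT, with 7. The summed neutrophil signal was 830.0 to 4452 on KO arrays, with 8 to 11 of 11 genes, against 326.5 and 1101 on WT, with 10 and 8. Cd8a, Cdh5 and Col1a1, markers of cytotoxic T cells, endothelium and stroma, were well above background on 0 of 10 arrays. Other genes of the same lists were so on all 10. These were Cd3e, Cd4, Lck and Thy1 among T cell genes, and Pecam1, Kdr, Col1a2, Lepr and Pdgfrb among stromal and endothelial genes. In sorted bulk cells, fewer cells of a type and less RNA per cell cannot be told apart, and the part of cell composition in the Hoxa values was not tested.

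Hoxa7 and Hoxa9, the members measured on every array, can be set beside the lists array by array. Hoxa7 lay -1.20 from WT on MDS/MPN replicate 1, -0.75 on replicate 3 and -0.43 on the not determined array, and Hoxa9 -0.86, -1.16 and -0.72. The medians of the 7 erythroid genes measured on both arrays were 3.80, 3.11 and 4.89 there. On the mixed array, where Hoxa7 lay 0.21 and Hoxa9 0.04 from WT, the erythroid median was 0.20, and on MDS/MPN replicate 2, with 0.28 and -0.26, it was 0.55. The MDS arrays had erythroid medians of 1.29 and 1.23, and the 3-month KO array, with 0.80 for Hoxa7 and -0.34 for Hoxa9, had 1.98. The neutrophil medians ran otherwise, with 2.54 on MDS/MPN replicate 2 and 3.72 on replicate 3. On MDS/MPN replicates 1 and 3 and the not determined array, the long-term stem cell medians were -0.80, -1.13 and -2.99. The LSK medians there were -0.50, -0.39 and -1.07. Both lists were also low where Hoxa7 lay above WT, at -2.62 and -0.95 on the 3-month KO array and -0.95 and -0.56 on MDS/MPN replicate 2.

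**Figure D5:**
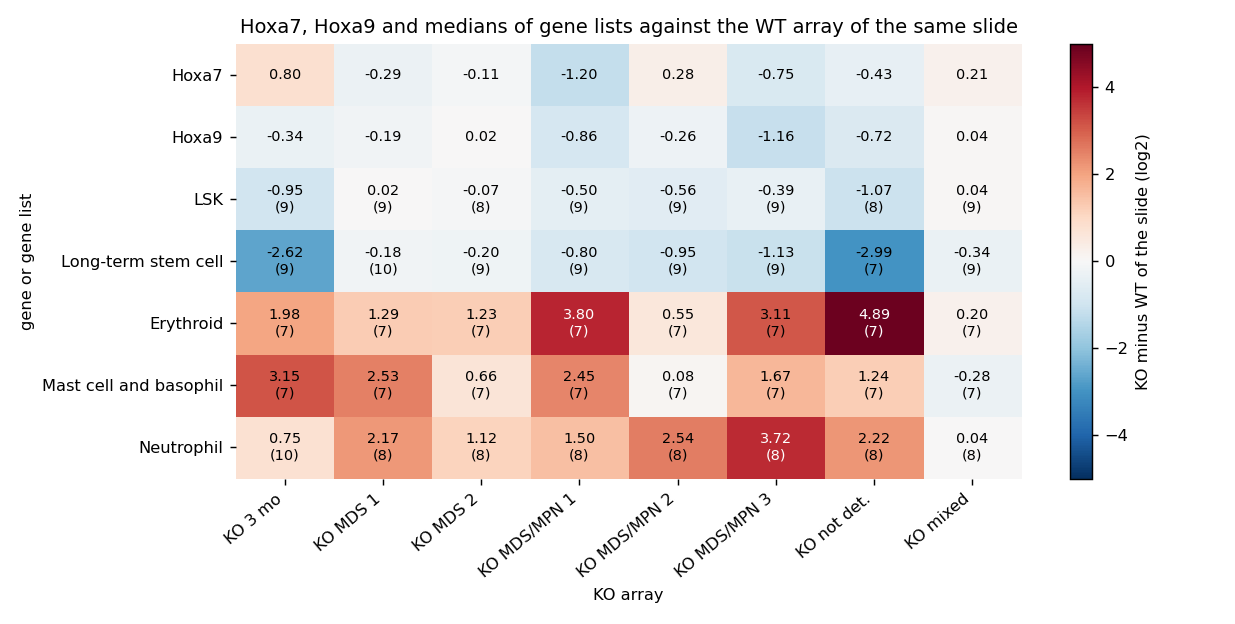
KO minus WT of the same slide in log2 (colour and printed value) for Hoxa7, Hoxa9 and the medians of 5 gene lists (rows) on the 8 KO arrays (columns), each median over the genes well above background on both arrays of the pair, whose number is in brackets. Hoxa9 runs from -1.16 to 0.04. Its lowest values stand on MDS/MPN 3, MDS/MPN 1 and the not determined array, where the erythroid row reads 3.11, 3.80 and 4.89. The long-term stem cell row reads -1.13, -0.80 and -2.99 on those arrays, and -2.62 on the 3-month KO array.

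Among 11569 genes well above background on at least 5 of the arrays, Hox genes aside, the 5 whose pattern lay nearest to that of Hoxa7 over the 10 arrays were Clec2i, Brd3, Zbtb12, Sult2a8 and Rgs3. The SD of their log2 difference from Hoxa7 was 0.16, 0.19, 0.20, 0.21 and 0.23. Within the cluster, the nearest to Hoxa7 was Hoxa9, with an SD of 0.38. All of these arrays share the scaling and the 2 slides, and the likeness is a description.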

How the data were processed

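RNA of CD45.2-sorted LSK cells was labelled with Cy3 and hybridised to 10 1-colour Agilent arrays, per the labels' protocols. The scanner files deposited by the authors give an intensity per spot, with background subtracted, and name Feature Extraction 10.7.1.1 as their source, per the file headers, while the submitters' processing notes name version 9.1. The deposited value table holds a ratio, which equals that intensity over the array's 75th percentile (SD of the log2 ratio 0.0002 against the matching file, at least 0.498 against any other), and 4 of its 10 columns match a file of another time label.

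Probes were named through RefSeq accessions and the table of GRCm38.p6: 27656 of 55681 had 1 symbol, and the other 28025 were kept unnamed. Values were log2 of the deposited intensities minus the 75th percentile of the array, with no pseudocount, spots of a probe averaged without outlier spots, and the brightest probe standing for its gene. A feature was tested where it was well above background on at least 50% of the arrays of a group compared. Medians over lists and pairs of arrays were limited to features measured on both sides, a limit chosen after seeing the data. Counts by array took all features tested, with dim KO readings raised to the floor given next. That rule, too, was chosen after seeing the data. For folds against a dim reading, dim values were raised to the floor of their array, its lowest signal called well above background. Some dim readings lay above that floor and were left as they were. The floor is thus no strict detection limit, and these folds are no strict minimum. Tests used limma 3.58.1 in R 4.3.3 (lmFit, eBayes) with Benjamini-Hochberg adjustment over all features and a threshold of 0.05, and ± is the SE. Tables and figures were made in Python 3.11.15 with numpy 2.4.6, pandas 2.3.3 and matplotlib 3.10.9. On simulated data with 200 changed genes, the comparison of all arrays recovered 33.5% at a log2 change of 2 and 87.5% at 4, the 9-12 month comparison 0% and 72%, the disease comparison 0% and 63%, and the difference of KO effects 0% and 0%. Precision is limited by the number of arrays.

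1 gene that the rule for named genes covers is not reported here. The members and lists were chosen with earlier results of these data known. Named are all members, the 3 nearest protein-coding genes on each side of the locus with Hoxa13 and Evx1, up to 4 genes per list with the smallest p over all arrays (lists of mature cell types and LSK markers by counts and medians), and the 5 genes nearest to Hoxa7. Promoter sequences are those of RefSeq. Alternatives covered scaling, background correction, filter, probe choice, test settings, value table, time labels, slide block, slide line and each array left out.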

Additional observations from a re-analysis of the deposited data

Results flagged for a closer look

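Hoxa10 on the not determined KO array, -4.21 (log2 signal over the 75th percentile), lay far below the other 6 KO arrays at 9-12 months, which ran from -1.59 to 0.26. The gap to the nearest was 0.587 of the whole range of the 7 arrays. The reading was not well above background, and the lowest signal so called on that array was -2.22. It is thus no measured value, and the level may lie above it. Without that array the KO minus WT difference of Hoxa10 at 9-12 months was 0.33, against -0.26 with it. With readings at background raised to the lowest signal so called on their arrays, the gap was 0.255 of the range, and the array no longer stood apart, so the gap rests on the background reading. Such a gap arises by chance in about 1 in 20 groups, and 7 groups were examined.

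Hoxa6 was higher in KO than in WT on slide 1, by 0.71, while all 7 KO arrays of slide 2 read below their WT, the nearest at -0.12. Neither reading on slide 1 was well above background, and on slide 2 only WT and the nearest KO array, MDS/MPN replicate 2, were. The side of MDS/MPN replicate 1 could not be settled, since its lowest signal called well above background, -1.51, lay above WT at -1.91. The difference between slides in this form was not tested. In the direct test of the KO effects, 9-12 months minus 3 months, Hoxa6 entered only through WT at 9-12 months. Its value there, -1.65 ± 1.01, is not read.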

How the results depend on the processing

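No Hoxa gene passed the test in any comparison under any alternative run. No paired analysis was possible because the labels give no replicate numbers; slide, not replicate, was the block. With 1 WT array per slide, few arrays and several readings at background, the fits could miss changes of the size seen here. Beside the differences in the report, the sign turned in these cases; each was a difference that had not passed the test, and the cause was not tested. In KO minus WT over all arrays, Hoxa6 was 0.019 with no slide block. Hoxa7 there was -0.12 with scaling on probes well above background on every array, -0.064 with quantile normalization and -0.082 with normexp. It was -0.32 on slide 2 alone, which is also the fit without either 3-month array. Its leave-one-out range was -0.32 to 0.80, and the 0.80, without the WT array of slide 2, rests on the pair of slide 1. In KO minus WT at 9-12 months, Hoxa3 was 0.11 and Hoxa10 1.13 with the KO arrays of the WT array's line only, Hoxa10 -0.56 to 0.33 when arrays were left out in turn, with 0.33 without the not determined array, and Hoxa7 0.13 with the time labels of the value table. In MDS/MPN minus MDS, Hoxa5 was -1.59 to 0.29 when arrays were left out in turn, with 0.29 without MDS/MPN replicate 3. The -1.59, without MDS/MPN replicate 2, sets readings at background against MDS. In the difference of KO effects, the time labels of the value table gave -1.12 for Hoxa3, -3.51 for Hoxa5, 1.25 for Hoxa6 and -2.41 for Hoxa10, leaving out MDS/MPN replicate 2 gave -0.0050 for Hoxa3 (leave-one-out range -0.0050 to 0.65), and scaling on probes above background on every array gave 0.064 for Hoxa9. In the mixed KO array minus WT, the median of the probes gave -0.11 for Hoxa9 and -0.039 for the median of 5 members.

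Counts of all features passing moved more. Over all arrays, 3 features passed, against 6 with scaling on probes above background on every array, 0 with normexp, with no filter, with a filter on every array, with trend and robust settings or without the mixed array, and 182 on slide 2 alone. Leaving out the KO arrays of slide 2 in turn gave 0 or 1. Leaving out either 3-month array left slide 1 without a pair, so that fit was the one on slide 2 alone. Without the WT array of slide 2 the difference rests on the lone pair of slide 1, and no count is given. At 9-12 months, 115 passed, against 212 with the scaling on probes above background on every array, 247 with quantile normalization, 50 with no filter, 182 with the mixed array added, and 0 with a filter on every array, trend and robust settings or the arrays of the WT array's line only. Leaving out arrays in turn gave 0 to 215, the highest without MDS/MPN replicate 2 and 0 without MDS replicate 1 or MDS/MPN replicate 3. For the difference of KO effects, 0 passed, against 191 with quantile normalization and 2 with the time labels of the value table.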

Other observations

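Hoxa11os, the antisense transcript of Hoxa11, was well above background on 0 of 10 arrays. Ezh1, the paralogue of Ezh2, read 3.74 on the 3-month KO array, against 4.60 on WT, and 4.24 and 4.41 on the MDS arrays, 3.43, 3.54 and 3.35 on the MDS/MPN arrays, 3.52 on the not determined array and 3.78 on the mixed array, against 3.81 on WT of slide 2. Its KO minus WT difference over all arrays was -0.35 ± 0.38 (limma adjusted p = 0.967).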
